A study of Mus musculus with 4 samples.

Results

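Pax7 binding was examined around 9 regulators of the paraxial mesoderm and its somites: Tbx6, Msgn1, Mesp1, Mesp2, Tcf15, Meox1, Meox2, Lfng and Hes7. A peak belonged to a gene when its summit lay between 100 kb before the start and 100 kb after the end of that gene in the mouse mm9 (NCBIM37) genome. By this rule 20 of the 20579 deposited Pax7 peaks lay in the windows of these genes, and 1 of the 20 fell in the windows of both Mesp1 and Mesp2. The rule uses the position of the summits and not their height.

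The peaks came from ChIP-seq, in which chromatin fragments bound by a protein are recovered with an antibody and sequenced. The 2 Pax7 ChIP and 2 input libraries all came from iPax7 cells, which are differentiating mouse embryonic stem cells carrying a doxycycline-inducible Pax7 transgene. Both groups had received 1 µg/ml doxycycline from day 3 of differentiation in serum, had been sorted as PDGFRα+FLK1- cells on day 5 and were harvested on day 9 after 6 days of doxycycline. The input is chromatin taken without the antibody step, and no group without doxycycline was analysed here. The transgene is a single inducible copy beside Hprt, and the antibody was directed at Pax7, so binding by transgenic and any endogenous Pax7 cannot be told apart. Each peak carries its fold enrichment, the ratio of ChIP signal to local background at the summit, and a −log10 q, where q is the false discovery rate of the peak caller. Peaks had been called by the authors on the merged replicates, so no value below has a spread between replicates, the number of reads behind a peak is unknown, and the expression of the 9 genes or of markers of the cell type was not measured in this list.

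Paraxial mesoderm is the tissue beside the neural tube that is cut into somites, the blocks from which skeletal muscle, vertebrae and dermis form. T-box and basic helix-loop-helix factors commit cells to this fate, an oscillating Notch and Wnt signalling clock times each cut, and homeobox and bHLH factors then shape the somite. Pax7 binds DNA with a paired domain and a homeodomain, and is known for its later role in the dermomyotome and in muscle progenitors.

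The sequences that the results turn on are shown first, each on the plus strand of mm9. All are centred on the summit except the one at Per1, which is centred on its motif. The peak 12.8 kb upstream of Msgn1 is included because it was the strongest of the 20, the next 3 because they held the paired-domain core GTCACG, and the 3 from the Lfng window because they were its strongest peaks and shared a homeodomain-type word. Capitals mark GTCACGC or its reverse complement at the first kind of site and CAATTAG at the Lfng sites; the first sequence and the one at Per1 overlap untranslated regions and are limited to 30 bases.
Msgn1, 12.8 kb upstream, chr12:11228559-11228588: gtgcctgtatgtgtgtgcacgatgttcttc
Msgn1, at Gen1, chr12:11271747-11271847: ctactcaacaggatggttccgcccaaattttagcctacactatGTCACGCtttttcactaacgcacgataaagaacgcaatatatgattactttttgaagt
Meox1, at Dusp3, chr11:101846143-101846243: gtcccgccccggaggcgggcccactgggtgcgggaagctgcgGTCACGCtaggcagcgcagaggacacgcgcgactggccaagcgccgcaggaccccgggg
Hes7, at Per1, chr11:68908704-68908733: aagctagggagGCGTGACagaacgggcggt
Lfng, 57.5 kb upstream, chr5:141025745-141025845: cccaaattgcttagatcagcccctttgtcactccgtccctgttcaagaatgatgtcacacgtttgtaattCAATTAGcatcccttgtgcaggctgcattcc
Lfng, 27.4 kb upstream, chr5:141055863-141055963: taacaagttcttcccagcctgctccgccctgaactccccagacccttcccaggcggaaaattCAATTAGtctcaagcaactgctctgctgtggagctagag
Lfng, promoter, chr5:141083177-141083277: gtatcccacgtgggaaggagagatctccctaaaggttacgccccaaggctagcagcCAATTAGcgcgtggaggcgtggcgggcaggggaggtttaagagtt

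All 9 genes had at least 1 Pax7 peak within 100 kb, and across all 22350 protein-coding genes 75.2% did. Lfng, the glycosyltransferase that modifies Notch receptors in the segmentation clock, had the most with 6 peaks. Msgn1 and Hes7 had 3 each, Mesp2, Tcf15 and Meox1 had 2 each, and Tbx6, Mesp1 and Meox2 had 1 each. The median over the 9 genes was 2 peaks, and the median over all protein-coding genes was also 2. For Lfng, 87.8% of protein-coding genes had fewer peaks and 7.58% had more, and for Msgn1 and Hes7 56.9% had fewer and 29.8% more. At the other end, 58.9% of protein-coding genes had more peaks than Tbx6, Mesp1 or Meox2.

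**Figure D1:**
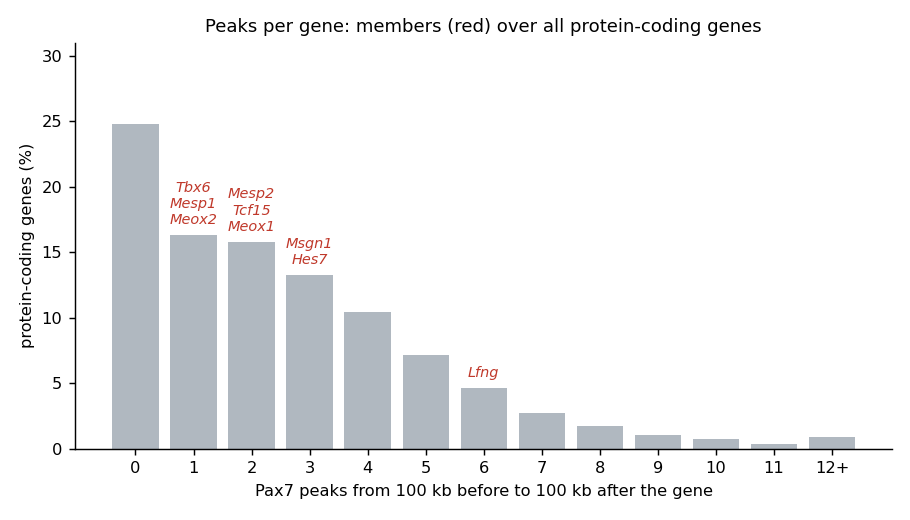
Number of Pax7 peaks from 100 kb before to 100 kb after a gene (horizontal axis), with the percentage of the 22350 protein-coding genes at each number (grey bars) and the members written in red above their number. Lfng stands at 6, and the other 8 members lie between 1 and 3.

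The windows of the 9 genes covered 1.73 Mb, in which the 20 peaks gave 11.5 peaks per Mb, against 7.80 per Mb over chromosomes 1 to 19 and X. Taken gene by gene, the median was 9.73 peaks per Mb over the 9 windows. In the same windows of all 22350 protein-coding genes it was 9.16, so the members lay near that background. Lfng had the highest rate of the 9, at 28.8 per Mb. The windows of the 9 genes were also richer in transcription start sites (TSSs) than the genome, with 10.6% of their bases within 1 kb of a TSS against 4.15%. Its part in the peak density was not tested. The windows were crowded to different degrees: 15 other protein-coding genes overlapped that of Tbx6 and 11 that of Hes7, but only 1 overlapped that of Meox2.

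Most of the 20 peaks lay closer to another gene than to the member. The nearest protein-coding TSS was that of a member for 4 peaks, 1 each at Msgn1, Meox1, Meox2 and Lfng, and that of another gene for 16. Windows of neighbouring genes overlap, and the same count over the windows of all protein-coding genes is not given here. The 4 and 16 therefore describe these 20 peaks and cannot be read as a trait of the members. In the map of the windows, 10 peaks lay within 1 kb of a TSS of any gene (50%, 95% Wilson interval 29.9% to 70.1%, counting error only), compared with 16.3% of all peaks. Of these 10 peaks, 2 lay at a member's own TSS and 8 at the TSS of a neighbour. Of the remaining peaks 4 were intronic, 5 intergenic and 1 exonic, whereas 42.1% of all peaks were intronic and 39.0% intergenic. The share near a TSS was thus above that of the list. These windows were also richer in TSSs, as given above, and the part of that richness in the share was not tested.

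**Figure D2:**
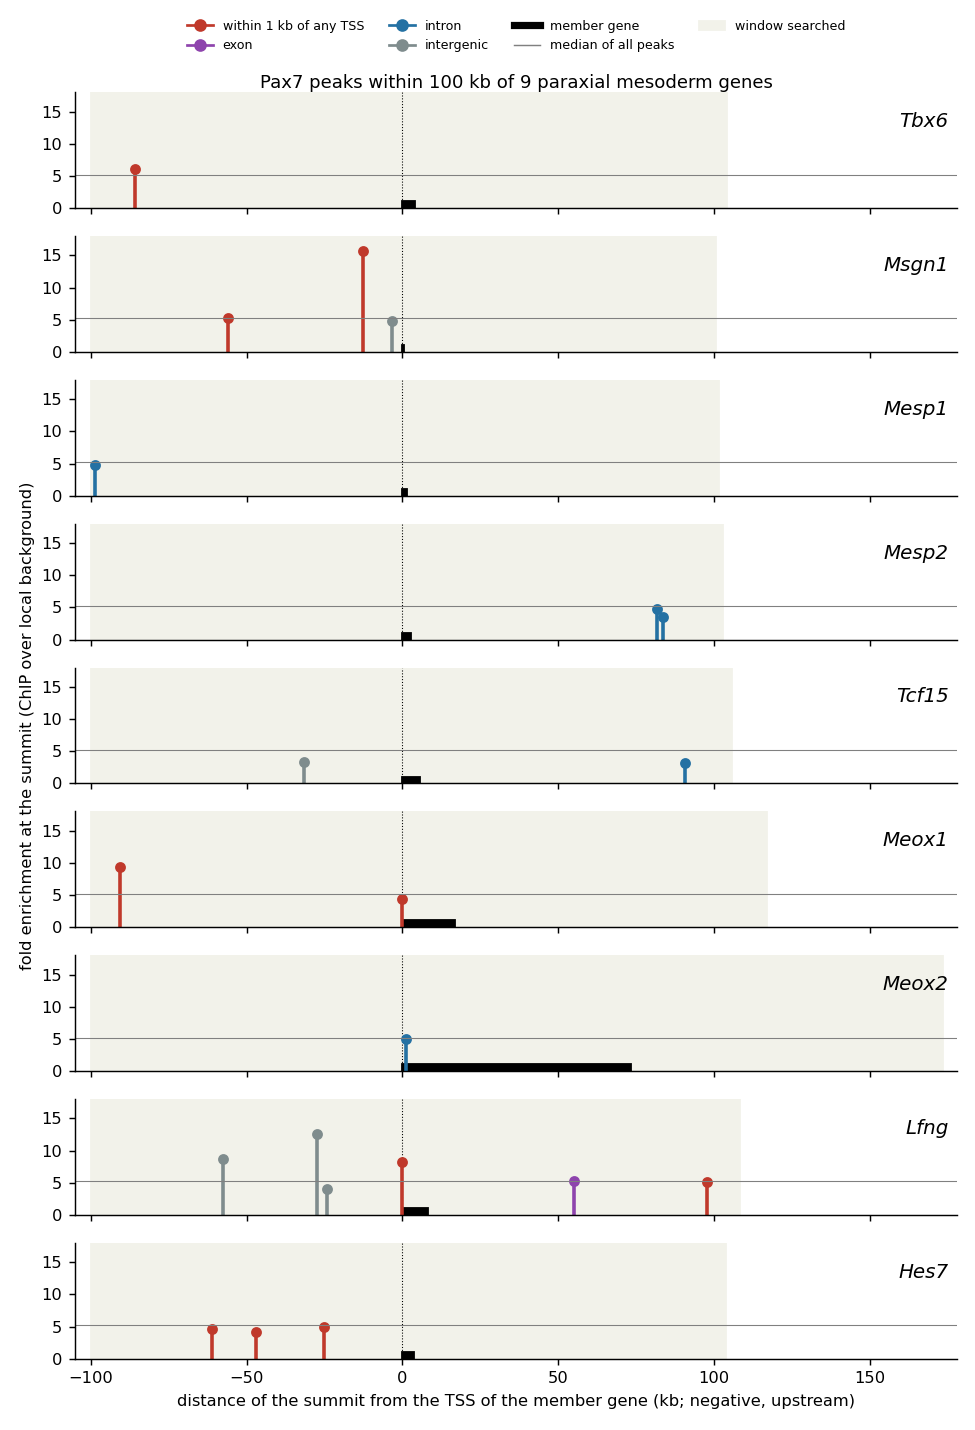
Fold enrichment of each Pax7 peak (vertical axis, ChIP over local background at the summit) against the distance of its summit from the TSS of the member gene (horizontal axis, kb, negative upstream), with 1 panel per gene, the window searched shaded and the grey line at the median of all peaks, 5.22-fold. Meox1, Meox2 and Lfng have a peak beside the start of the gene and Msgn1 has peaks 3.23 and 12.8 kb upstream, whereas the peaks at Tbx6, Mesp1 and Mesp2 lie 81.8 to 98.7 kb away.

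Tbx6 and Msgn1 encode the T-box and bHLH factors that set the paraxial mesoderm fate in the tail bud and presomitic mesoderm. The window of Tbx6 (chr7:133924997-133929074, plus strand) held a single peak, at chr7:133839203-133839467, reaching 6.04-fold at a −log10 q of 24.8, above 66.0% of all peaks. Its summit was 85.7 kb upstream of Tbx6 but 17 bp upstream of the TSS of Slx1b, a subunit of a structure-specific nuclease, and inside a UTR exon of Bola2. No peak was found nearer to Tbx6, and the next beyond the window was 90.5 kb past its edge with 3.84-fold enrichment.

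Msgn1 (chr12:11215188-11215754, minus strand) had the strongest of the 20 peaks. It lay at chr12:11228358-11228745, 12.8 kb upstream, at 15.7-fold (−log10 q 101.01), above 99.1% of the list and ranked 185 from the top. Its summit was 443 bp inside 1700034J04Rik, an annotated gene without a settled role, in a UTR exon. None of the searched motifs lay within 50 bp of this summit, of which the central 30 bases are printed above. The peak nearest to Msgn1, at chr12:11218780-11219076, was intergenic with its summit 3234 bp upstream, and Msgn1 was the closest gene; its enrichment was 4.80-fold (−log10 q 8.89), above 39.9% of all peaks. The third peak, at chr12:11271691-11271963, was 56.0 kb upstream in an intron of Gen1, which encodes a Holliday junction resolvase, 775 bp from the TSS of that gene. Its enrichment was 5.29-fold (−log10 q 14.1), and GTCACGC lay 4 bp from its summit on the plus strand. The Msgn1 window thus combined a strong peak near the TSS of 1700034J04Rik and a weaker one nearest to Msgn1. Beyond the window the list was empty for a further 519 kb.

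The segmentation clock was represented by Lfng and by Hes7, the bHLH repressor at the core of the oscillator, and their peaks differed in height. At Lfng (chr5:141083295-141091497, plus strand), 5 of 6 peaks had at least 5-fold enrichment, whereas all 3 peaks at Hes7 were below 5-fold. Among the 20 member peaks 10 reached 5-fold (50%, Wilson interval 29.9% to 70.1%), and 54.9% of all peaks did, so the members as a group lay near the background and Lfng supplied 5 of the 10. With no replicate values, the difference between both genes was not tested.

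The highest Lfng peak, at chr5:141055808-141056043, was intergenic and 27.4 kb upstream, and reached 12.6-fold at a −log10 q of 51.5, above 97.4% of the list. A peak at chr5:141025674-141025943, 57.5 kb upstream and also intergenic, stood at 8.72-fold (−log10 q 26.8). The promoter peak, at chr5:141083010-141083383 with its summit 68 bp upstream of the Lfng TSS, was enriched 8.16-fold (−log10 q 24.8), above 85.7% of the list. Both intergenic peaks were nearest to Grifin, a galectin-related gene of the lens, at 14.9 and 15.2 kb, so that of the 3 strong sites only the promoter peak had Lfng as its closest gene. The other 3 peaks were weaker: one 24.2 kb upstream had 4.00-fold enrichment, one 54.9 kb downstream in a UTR exon of Iqce had 5.28-fold, and one 97.7 kb downstream and 11 bp upstream of the Baat1 TSS had 5.09-fold.

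The Hes7 gene (chr11:68933906-68937557, plus strand) had no peak within 10 kb. Its nearest and strongest peak, at chr11:68908553-68908808 and 25.2 kb upstream, was enriched 4.92-fold (−log10 q 9.53), above 43.2% of the list. That summit was 7 bp upstream of the TSS of Per1, a circadian clock gene, and GTCACGC was found on the minus strand with its centre 6 bp from the summit. The other 2 peaks were also at starts of neighbours, 46.9 kb upstream at the small nucleolar RNA gene Snord118 with 4.19-fold enrichment and 61.1 kb upstream beside 2310047M10Rik with 4.66-fold. All 3 Hes7 peaks therefore lay within 1 kb of the TSS of another gene, and the one at Snord118 was the widest of the 20 at 569 bp.

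Mesp1 and Mesp2 are neighbouring bHLH genes on chromosome 7, Mesp2 being known for setting the segment boundary and Mesp1 for nascent mesoderm including heart precursors. No peak was found near either gene. Mesp1 (chr7:86937127-86938674, minus strand) had 1 peak, at chr7:87037272-87037557, 98.7 kb upstream, at 4.80-fold and a −log10 q of 10.6. The same peak lay 81.8 kb downstream of the TSS of Mesp2 (chr7:86955613-86958317, plus strand). A further peak at chr7:87039092-87039290 was enriched 3.52-fold (−log10 q 6.31), above only 6.89% of the list, and its summit was in the window of Mesp2 but 0.51 kb outside that of Mesp1. Both peaks were in introns of Ap3s2, a subunit of an adaptor complex of vesicle transport, and the edge of the Mesp1 window fell between their summits.

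Tcf15 (Paraxis), the bHLH factor needed for somites to become epithelial, had the weakest peaks of the 9 genes. The peak 31.4 kb upstream of the gene (chr2:151969297-151974833, plus strand), at chr2:151937727-151937923, was enriched 3.34-fold (−log10 q 3.69), above 4.58% of the list. It was intergenic and 6.40 kb from the TSS of Srxn1, which encodes sulfiredoxin. The other, at chr2:152059774-152059990 in an intron of Csnk2a1, 90.6 kb downstream, was enriched 3.17-fold (−log10 q 5.24), the lowest of the 20.

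Meox1 and Meox2 encode homeobox factors of the early somite, with roles in the sclerotome and in limb muscle, and each had a peak beside its own start. At Meox1 (chr11:101738824-101755688, minus strand), the summit at chr11:101755731-101755912 was 79 bp upstream of the TSS, at 4.32-fold (−log10 q 6.81), above 25.4% of the list. At Meox2 (chr12:37835127-37908372, plus strand), the single peak at chr12:37836113-37836292 was 1054 bp downstream of the TSS in an intron, at 5.06-fold (−log10 q 9.14), above 45.9%. Neither of these proximal peaks held any of the searched motifs, and both were below the median of the list. A stronger peak in the Meox1 window, at chr11:101846050-101846354, reached 9.41-fold (−log10 q 30.8), above 91.0% of the list. It was 90.5 kb from Meox1 and 80 bp upstream of the TSS of Dusp3, a dual-specificity phosphatase, in a sequence of 77.2% GC with 13 CpG dinucleotides within 50 bp of the summit, and GTCACGC lay 5 bp from its summit.

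**Figure D3:**
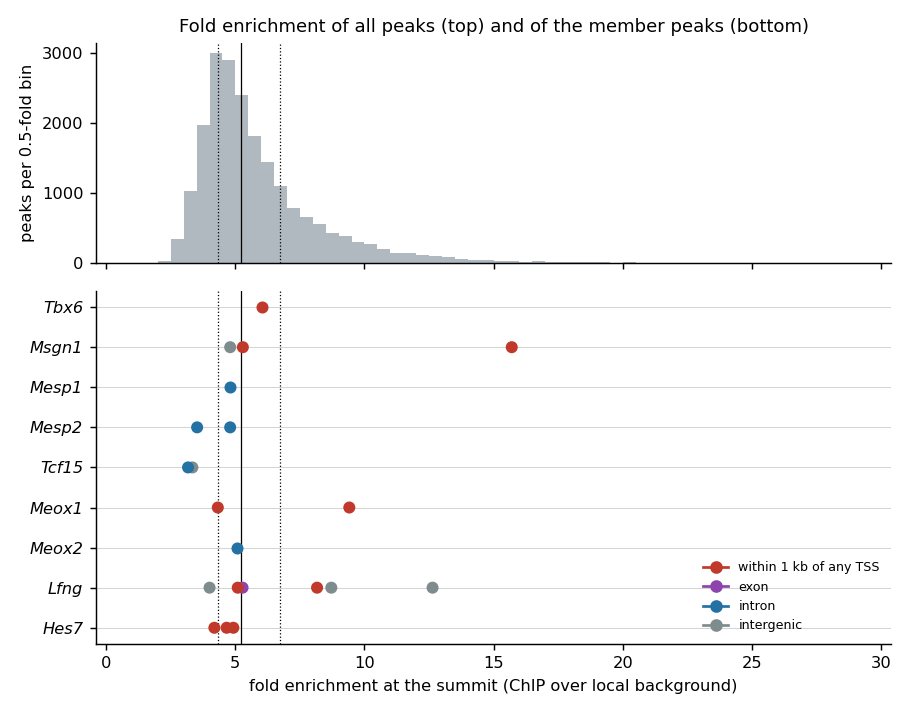
Fold enrichment (horizontal axis) of all 20579 peaks as a histogram in bins of 0.5 (top) and of each member peak by gene (bottom), coloured by location; the vertical lines give the lower quartile, median and upper quartile of all peaks, 4.32, 5.22 and 6.74. Of the 20 member peaks 5 lie above the upper quartile, in the windows of Msgn1, Meox1 and Lfng, and both Tcf15 peaks lie below the lower quartile. Those in the Msgn1 and Meox1 windows are nearest to the TSSs of 1700034J04Rik and Dusp3.

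The fold enrichment of the 20 peaks ranged from 3.17 to 15.7 with a median of 4.99 (95% interval from order statistics 4.32 to 6.04), and the median of all peaks, 5.22, fell inside that interval. The median width was 262 bp, against 252 bp in the whole list. The sequence within 50 bp of the summits had a median GC content of 53.0%, against 45.5% over all peaks. The 20 peaks also held a larger share within 1 kb of a TSS, 50% against 16.3%. The part of that share in the GC content was not tested. Binding at the start of a gene was found at 2 of the 9 members within 1 kb, where 11.8% of protein-coding genes had a summit, and at 4 of 9 within 10 kb, where 24.2% did. No interval was computed for these counts of 9 genes, and a difference from all protein-coding genes was not tested. The distance from the TSS to the nearest summit was lowest at Lfng and Meox1, then Meox2 and Msgn1, followed by Hes7, Tcf15, Mesp2, Tbx6 and Mesp1. Its median over the 9 genes was 25.2 kb, compared with 41.0 kb over all protein-coding genes. The members were spread widely around that value. The share of protein-coding genes with a closer summit ran from 2.87% for Lfng to 71.5% for Mesp1.

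Motifs were looked for in the 50 bp to either side of each summit, in both orientations. The paired-domain core GTCACG was present at 3 of the 20 peaks (15.0%, Wilson interval 5.24% to 36.0%) and at 11.1% of all peaks, a share that the interval includes. All 3 sites, at Gen1, Dusp3 and Per1, also read GTCACGC, which contains GTCACG and was found at 4.58% of all peaks. These sites lay 4.5 to 6.5 bp from the summit by the centre of GTCACG, below the list's median of 16.5 bp and its lower quartile of 7.5 bp. The list values cover all 2292 peaks with GTCACG, whereas the longer GTCACGC was found at 942 peaks. The comparison is thus not between like sites, and it rests on 3 sites. All 3 were near the TSS of a gene that is not a member, and none of the 4 peaks nearest to a member's TSS held the core. The motif itself was common in the windows: of 198 occurrences of GTCACG, 3 (1.52%) lay in a peak, and over chromosomes 1 to 19 and X 3586 of 207940 (1.72%) did.

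ATTAGTCA, which contains the homeodomain core ATTA, was found at 0 of 20 peaks and at 2.94% of all peaks. The homeodomain dimer, TAAT followed by 2 bases and ATTA, was found at 0 of 20 and at 0.831%, and the scrambled control GTACCG at 0 of 20 and at 0.87%. A count of 0 in 20 has an upper Wilson bound of 16.1%, above each of these shares, so a lower frequency was not detectable with 20 peaks. CAATTAG was added to the search after the Lfng sequences had been seen, and its count is a description only. It occurred at the 3 strongest Lfng peaks, 9, 15 and 23 bp from the summits of the promoter, 27.4 kb and 57.5 kb sites, at none of the 14 peaks outside the Lfng window, and at 3.81% of all peaks.

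A further 34 genes of the same tissue were counted in the same way, and 23 of them (67.6%) had a peak, against 75.2% of protein-coding genes. Genes of entry into the mesoderm and posterior growth had a peak in 5 of 7 cases, those of the clock and of Notch or Wnt feedback in 10 of 12, those of segment boundary and polarity in 4 of 6, and those of the somite and its compartments in 4 of 9. The most peaks were at Dusp6, a feedback phosphatase of FGF signalling, with 11, at Epha4, an ephrin receptor of the segment border, with 6, and with 5 each at Notch1, Dmrt2 and Nrarp, the last 3 being tied. Nrarp, a feedback inhibitor of Notch, had a peak of 15.1-fold enrichment, close to that at Msgn1, and Nrarp and Dusp6 were the only 2 of the 34 with a summit within 1 kb of their TSS. No peak was found within 100 kb of Cdx2, Cdx4, Hey1, Hey2, Ripply1, Ripply2, Foxc1, Pax1, Pax9, Nkx3-2 and Aldh1a2.

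**Figure D4:**
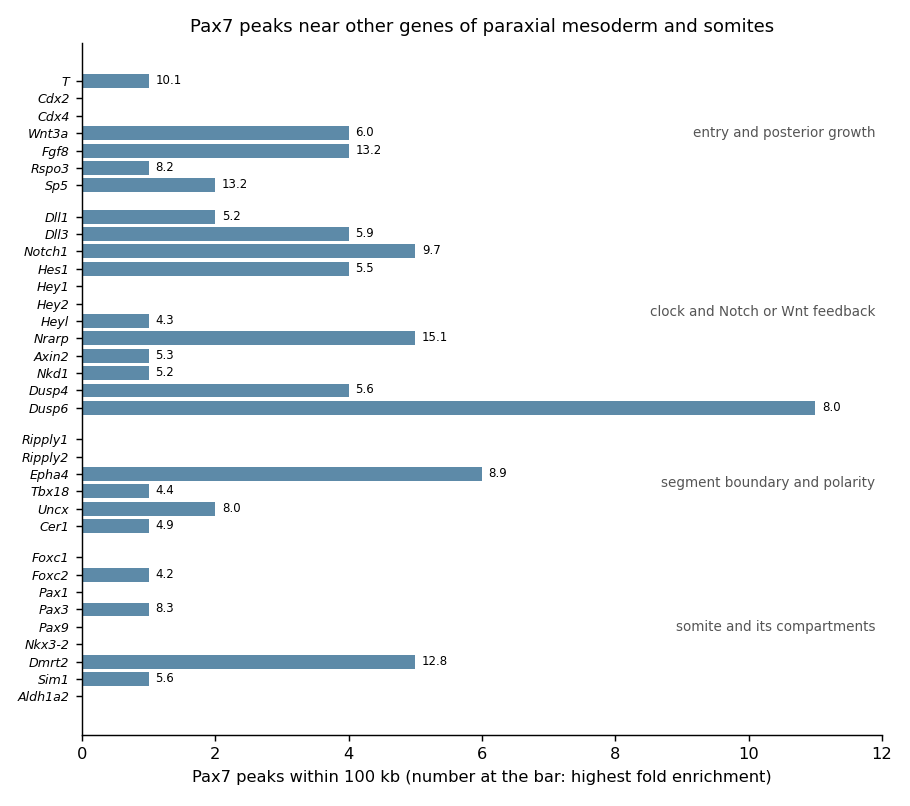
Number of Pax7 peaks from 100 kb before to 100 kb after each of 34 other genes of the paraxial mesoderm and somites (horizontal axis), grouped by role, with the highest fold enrichment among its peaks written at each bar; genes without a bar had 0 peaks. Dusp6 has 11 and Epha4 6, and 11 genes have none.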

How the data were processed

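Pax7 ChIP-seq was analysed from 2 Pax7 ChIP and 2 input libraries of iPax7 cells. Reads had been mapped by the authors to mm9 using bowtie2 2.3.4.1. They then removed duplicates with Picard 1.88, merged the replicates and called peaks with MACS2 2.1.1, keeping those with q under 0.01 (tools and versions from the submitters' processing notes and the study's methods). The deposited list holds, per peak, the fold enrichment, a ratio of pooled ChIP over local background, and the −log10 q that the authors computed; both served to describe and rank peaks. No reads or depth per peak were given, so intervals cover counting of peaks only, and p-values were not computed. Of columns holding values per sample, 0 could not be assigned.

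Summits were placed on NCBIM37 with the GENCODE annotation of that build, with 1-based coordinates. Windows ran 100 kb to each side of a gene. A summit within 1 kb of the TSS of any transcript was called promoter, then exon, intron or intergenic. For each member the peak with the highest fold enrichment, the peak nearest its TSS and any within 10 kb were given with all values; of the other 34 genes, those without a peak and the 3 with most peaks were named. Sequences reaching up to 50 bp to either side of the summit were printed for so-named peaks with a searched motif and for the strongest peak; those at Gen1 and 57.5 kb upstream of Lfng were added after their values had been seen. The members and lists were chosen with earlier results of these data known. The search and counting steps were tested on simulated data. Alternatives in the filter, window, merging, assignment, motif and promoter distance were tried. Python 3.11.15, numpy 2.4.6, pandas 2.3.3 and pysam 0.24.0 were used.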

Additional observations from a re-analysis of the deposited data

How the results depend on the processing

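Beyond the peak list itself, the choices that moved the results were the window size, the assignment of peaks to genes and the cut on height. Of the 20 peaks 10 remained at a fold enrichment of at least 5, with a median of 1 per gene, 5 genes with a peak and a median fold enrichment of 7.10, by construction. Within 50 kb of the genes there were 11 peaks at 6 genes, with a median of 1 per gene, and within 200 kb the median was 4. When a peak counted only for the gene with the nearest protein-coding TSS, 4 peaks at 4 members were left, the median per gene was 0, the share with GTCACG was 0%, and 15 of the other 34 genes had a peak. That 0% rests on 4 peaks. The 75.2% of protein-coding genes with a peak holds for the main rule only. Shares of all protein-coding genes under these alternatives were not computed, so these gene counts have no background beside them. Of the 60 alternatives tried on the main results, the remaining 48 stayed within 1.5 times the main count or within the interval of the main share or median. Of 73 further alternatives, nearly all on the peak count of a single gene, 24 left that range. Hes7 had 6 peaks within 200 kb and 0 at 5-fold or more, and Mesp1 had 4 within 200 kb and 0 within 50 kb. The count at Lfng left the range only under assignment to the nearest TSS, with 1 peak.

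No paired analysis was possible because the peaks were called on merged replicates and the list has no column per replicate; for the same reason no replicate could be left out. The absence of read counts limits every single-peak value, and 20 peaks give every share a wide interval. CAATTAG was chosen after seeing the data and, like GTCACG, was found at 15.0% of the 20 peaks.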
